A study of Mus musculus with 2 samples.

Results

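YY1 peaks upstream of single coding start sites are the subject here: places where the YY1 ChIP-seq signal in muscle stem cells (MuSCs) had its highest point just before the start of 1 protein-coding gene. A peak was counted when its summit, the base with the most fragments, lay more than 100 and up to 1000 bp upstream, in the direction of the gene, of the nearest start of a protein-coding transcript. Summits were dropped when starts of coding genes on both strands, or the start of a lincRNA, antisense or processed-transcript gene, lay within 1000 bp. Of 784 summits in that upstream range, 66 were dropped for coding starts on both strands, 87 for a noncoding start and 2 for both. There remained 629 of the 4681 peaks, or 13.4% (95% exact binomial interval 12.5% to 14.4%), at 623 genes. At 6 of them, starts of 2 or more coding genes of 1 strand lay within 1000 bp of the summit. The same rule gave the 2 sets used for comparison, 1385 peaks with the summit within 100 bp of the start (centred peaks) and 869 with the summit more than 100 and up to 1000 bp downstream (downstream peaks).

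The study asked how loss of the transcription factor YY1 changes MuSCs in the mdx mouse, a model of Duchenne muscular dystrophy that lacks functional dystrophin. The ChIP-seq was made in its Ctrl mice, which carry the tamoxifen-inducible Pax7 CreERT2 driver and the R26YFP reporter but intact Yy1 (Yy1 +/+) on the mdx background, so that YFP marks cells with Pax7-driven Cre activity. Cells of 20 such mice were mixed into 1 YY1 library, which was set against 1 background library that the labels call input and the paper calls IgG. The paper describes freshly isolated cells of mdx mice, but GEO's own labels speak of culture and of wild-type animals, and no file used here settles this. There were no replicates, the age of the mice was not used, and a list of peaks cannot check the cell type because it holds no expression values. Every test below compares regions of this 1 peak list, not samples, and intervals of shares cover counting error only.

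YY1 is a zinc-finger protein present in most cell types that can activate or repress genes and that is also found in chromatin-remodelling complexes such as INO80. It reads a short DNA word with the core ATGGC, and its sites at promoters often sit at or just after the transcription start. Upstream of a start lies the proximal promoter, where factors such as SP1, NF-Y, NRF1 and CREB bind.

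The sequences of a few upstream windows give examples of the YY1 motif there. Shown first are the motif-bearing upstream peaks with the highest fold enrichment whose window overlaps no annotated exon. Each is the mm10 (GRCm38) reference within 100 bp of the summit, read 5′ to 3′ on the strand of the gene, with AANATGGC or its reverse complement in capitals. Arfgef1, an activator of ARF GTPases, has the window chr1:10232946-10233146 on the minus strand, and Prpsap1, which associates with phosphoribosyl pyrophosphate synthetase, has chr11:116490393-116490593 on the minus strand. Wrb, part of the receptor that inserts tail-anchored proteins into the endoplasmic reticulum, has chr16:96145186-96145386 on the plus strand. Napepld, an enzyme of lipid signalling, has chr5:21701478-21701678 on the minus strand, and Arid1a, a subunit of the SWI/SNF remodelling complex, has chr4:133754283-133754483 on the minus strand.
Arfgef1: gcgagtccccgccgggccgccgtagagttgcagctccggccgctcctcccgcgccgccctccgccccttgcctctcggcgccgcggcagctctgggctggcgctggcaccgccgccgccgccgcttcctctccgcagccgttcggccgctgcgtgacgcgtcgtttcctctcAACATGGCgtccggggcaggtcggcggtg
Prpsap1: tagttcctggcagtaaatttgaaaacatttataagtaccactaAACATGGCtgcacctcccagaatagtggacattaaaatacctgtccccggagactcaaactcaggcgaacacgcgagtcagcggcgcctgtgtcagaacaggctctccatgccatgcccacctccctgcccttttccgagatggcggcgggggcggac
Wrb: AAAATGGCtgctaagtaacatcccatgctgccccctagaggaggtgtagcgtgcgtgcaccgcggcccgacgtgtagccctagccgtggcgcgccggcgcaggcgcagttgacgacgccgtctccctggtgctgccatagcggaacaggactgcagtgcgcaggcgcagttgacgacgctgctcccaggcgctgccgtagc
Napepld: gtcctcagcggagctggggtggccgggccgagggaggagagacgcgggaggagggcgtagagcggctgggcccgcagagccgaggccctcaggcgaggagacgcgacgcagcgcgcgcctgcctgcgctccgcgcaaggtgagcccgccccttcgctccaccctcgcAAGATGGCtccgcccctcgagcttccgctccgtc
Arid1a: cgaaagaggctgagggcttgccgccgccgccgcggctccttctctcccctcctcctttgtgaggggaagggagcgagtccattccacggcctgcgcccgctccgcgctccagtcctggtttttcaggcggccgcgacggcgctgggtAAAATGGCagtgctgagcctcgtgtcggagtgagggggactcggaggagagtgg

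In these 5 windows the middle of the word in capitals lies between 50.5 and 96.5 bp from the summit, which is the middle base of each run. The form of the word differs: Arfgef1 and Prpsap1 hold AACATGGC, Wrb and Arid1a hold AAAATGGC, and Napepld holds AAGATGGC. In all 5 the word reads in the direction of the gene, and in this they are unlike the whole set. Of all 33 matches at upstream peaks, 12 read in that direction and 21 in the opposite one.

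Shown next are the 4 upstream peaks with the highest fold enrichment, with words of other promoter factors marked, which were not marked in the windows above. Kmt2a, a histone H3 lysine methyltransferase, has the window chr9:44881405-44881605, Kdm3a, a histone H3 lysine demethylase, chr6:71633410-71633610, Clptm1 chr7:19665090-19665290, and Upf1, the helicase of nonsense-mediated mRNA decay, chr8:70353293-70353493, all on the minus strand of mm10. Here the capitals mark GGGCGG, the word of the SP/KLF family, GCGCANGCG, the word of NRF1, CCGGAAG, the word of ETS factors, and GCCAAT, the word of NF-Y, on either strand. No window of these 4 holds AANATGGC.
Kmt2a: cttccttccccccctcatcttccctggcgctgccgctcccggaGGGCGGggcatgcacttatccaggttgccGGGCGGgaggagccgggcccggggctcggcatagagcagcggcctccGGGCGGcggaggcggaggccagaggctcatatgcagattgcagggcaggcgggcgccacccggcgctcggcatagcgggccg
Kdm3a: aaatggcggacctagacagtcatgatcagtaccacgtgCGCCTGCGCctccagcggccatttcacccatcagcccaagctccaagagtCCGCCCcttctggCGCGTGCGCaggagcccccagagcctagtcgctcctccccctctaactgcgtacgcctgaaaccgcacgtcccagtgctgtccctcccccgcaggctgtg
Clptm1: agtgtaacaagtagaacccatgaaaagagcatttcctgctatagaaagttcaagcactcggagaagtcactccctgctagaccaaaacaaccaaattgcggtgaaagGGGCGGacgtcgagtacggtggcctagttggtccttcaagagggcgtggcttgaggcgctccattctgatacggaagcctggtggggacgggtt
Upf1: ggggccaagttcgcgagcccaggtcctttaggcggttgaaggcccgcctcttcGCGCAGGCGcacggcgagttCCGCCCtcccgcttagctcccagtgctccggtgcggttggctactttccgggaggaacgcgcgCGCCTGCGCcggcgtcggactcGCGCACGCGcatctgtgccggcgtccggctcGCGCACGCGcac

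The Kmt2a window holds GGGCGG 3 times and none of the other words. The Kdm3a window holds GGGCGG once and the NRF1 word in 2 places, the Upf1 window holds GGGCGG once and the NRF1 word in 4 places, and the Clptm1 window holds GGGCGG once. None of the 4 holds CCGGAAG or GCCAAT.

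Upstream summits were densest near the start. Within 200 bp of it lay 314 of the 629 (49.9%), the quartiles were 146 and 328 bp, and the farthest was at 994 bp. By distance, 177 summits lay up to 150 bp away, 137 beyond that and up to 200 bp, 136 up to 300 bp, 97 up to 500 bp and 82 up to 1000 bp. These 5 ranges are used below. At the first base inside the near limit were the peaks of Esco1, Mindy2 and Map3k7 with fold enrichments of 6.56, 5.55 and 5.04, and at the first base outside it, at 100 bp, those of Skp1a and Polg with 4.37 and 3.32. At the far limit the last peaks kept were those of Rbpj (994 bp, fold 5.12), Hcfc1 (991 bp, 4.34) and Gfi1 (974 bp, 3.94), and the first left out were those of U2af2 (1001 bp, 5.50), Gprin1 (1018 bp, 4.08) and Hic1 (1023 bp, 6.67). The summits form the shoulder of a distribution that peaks at the start, and the limits do not mark a gap in it.

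**Figure D1:**
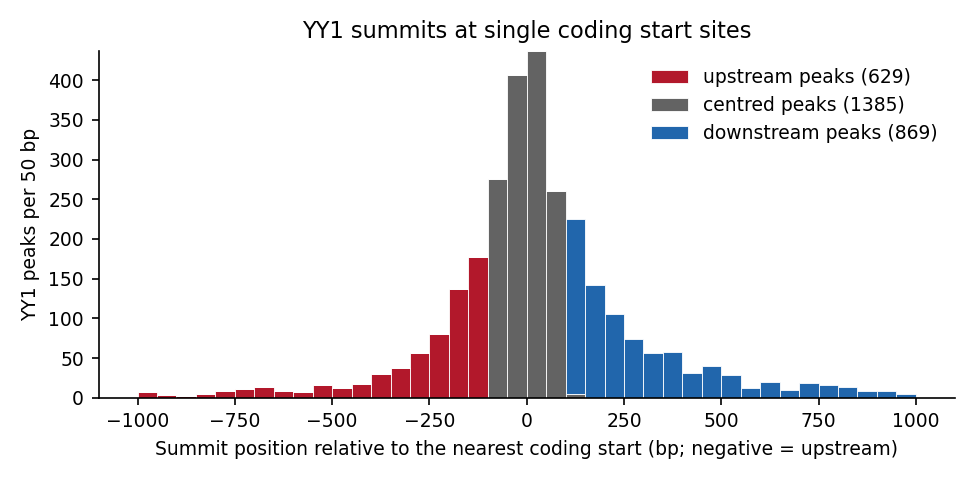
Number of YY1 summits per 50 bp against their position relative to the nearest coding start, in the direction of the gene, for the 629 upstream, 1385 centred and 869 downstream peaks. Counts fall away from the start on both sides, and 314 of the upstream summits lie within 200 bp of the start.

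In the annotation, 389 upstream summits (61.8%) lay outside every gene. A further 162 (25.8%) lay inside the gene they were assigned to, before one of its later starts, 130 of them in an intron and 32 in an exon. The other 78 (12.4%) lay in another gene, 47 in an intron and 31 in an exon. The median fold enrichment was 5.13 outside genes, 5.32 in the own gene and 5.05 in another gene. Another annotated start, of any transcript, lay within 100 bp of 66 upstream summits (10.5%, interval 8.21% to 13.2%) and of 206 downstream summits (23.7%, interval 20.9% to 26.7%). The rule itself used annotated starts, so this is a description.

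The upstream peaks were spread over the autosomes, from 18 on chromosomes 14 and 18 to 57 on chromosome 11, and 4 of the 34 peaks on the X chromosome were among them. Of the 629 peaks, 74 shared their start with another summit within 1000 bp, and for 12 of these the other summit lay within 100 bp of the start. At 6 genes there were 2 upstream peaks, Crebbp, Klf10, Lmo4, Smarcc2, Tlx2 and Zc3h4. For Crebbp, a histone acetyltransferase, 1 summit lay 104 bp before the first start, with a fold enrichment of 4.37, and the other 175 bp before a start further in, with 6.31. For Smarcc2, a SWI/SNF subunit, both belonged to the same start, at 712 bp with 4.29 and at 114 bp with 5.38.

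The 7 comparisons of strength, motif and base composition that follow were two-sided Fisher's exact tests, adjusted together by the Benjamini-Hochberg method. Upstream peaks reached a high fold enrichment about as often as centred ones and more often than downstream ones. The fold enrichment of a peak is the number of fragments at its summit over the local background, with 1 added to each. It ran from 2.60 to 11.7 with a median of 5.13 and quartiles of 4.45 and 6.05, against medians of 5.19 for centred and 4.97 for downstream peaks. These values rest on few fragments, 8 to 33 at an upstream summit with a median of 15, over a median local background of 1.98. A fold enrichment of at least 5 was reached by 382 upstream peaks (60.7%), where 53.9% of all peaks reached it. The share was 60.8% of centred peaks (ratio 0.999, interval 0.926 to 1.08, p = 1, adjusted p = 1) and 49.9% of downstream peaks (ratio 1.22, interval 1.11 to 1.33, p = 4.07e-05, adjusted p = 0.000142, Fisher's exact tests). The q-value was under 0.05 for 621 upstream peaks and under 0.01 for 595.

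The 10 strongest upstream peaks belonged to genes of several kinds. Kmt2a came first with a fold enrichment of 11.7 from 33 fragments, 209 bp before its start and within an intron of another annotated gene. Kdm3a followed with 11.1 from 32 fragments at 520 bp. Clptm1 had 10.2 at 157 bp and Upf1 10.1 at 115 bp. Nampt, the rate-limiting enzyme of NAD salvage, had 9.98 at 130 bp, and Skil, a repressor of TGF-beta signalling, had 9.96 at 171 bp. Fbxw7, the substrate receptor of an SCF ubiquitin ligase, also had 9.96, at 692 bp, and it is the farthest of the 10. Btbd7 had 9.86 at 117 bp, Arfgef1 9.63 at 376 bp and Tmem170b 9.46 at 168 bp. Hnrnpa0 tied with Tmem170b in fold enrichment and fragments, and its position left it outside the 10. Of the 10, Arfgef1 was the one with AANATGGC within 100 bp of its summit.

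The median fold enrichment hardly varied with distance. It was 5.15, 5.35, 5.30, 5.13 and 5.00 from the nearest to the farthest of the 5 distance ranges, and Spearman's rho between distance and fold enrichment was -0.07 across the 629 peaks, which share 1 library and are not replicates. The share with a fold enrichment of at least 5 was 58.8%, 65.7%, 65.4%, 59.8% and 50% in the same order, lowest beyond 500 bp. Wider peaks were somewhat stronger (rho 0.31).

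**Figure D2:**
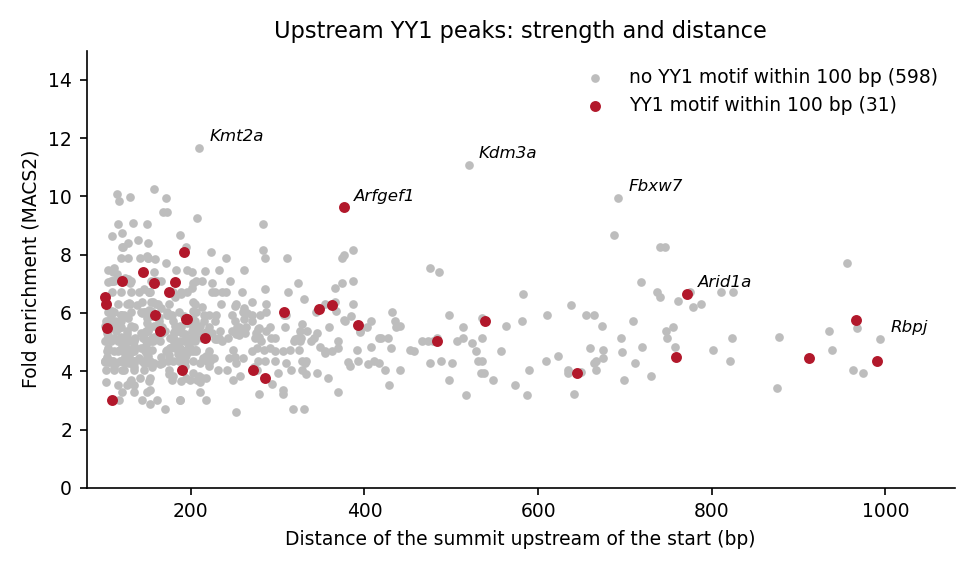
Fold enrichment of each of the 629 upstream peaks against the distance of its summit from the start, with the 31 peaks that hold AANATGGC within 100 bp of the summit in red. Kmt2a (11.7) and Kdm3a (11.1) are highest, strong peaks such as Fbxw7 (9.96) occur beyond 500 bp, and motif-bearing peaks run from 3.03 (Cstf3) to 9.63 (Arfgef1).

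The upstream peaks were 215 to 2013 bp wide with a median of 390 bp, against 357 bp for centred and 352 bp for downstream peaks. The widest was that of Brd2, a bromodomain protein that reads acetylated histones, at 2013 bp, with its summit 348 bp before the start and a fold enrichment of 6.12. Many peaks reached the start although their summit did not: the start lay inside the peak for 334 upstream peaks (53.1%) and 369 downstream peaks (42.5%). From the nearest to the farthest of the 5 distance ranges the share was 85.9%, 67.2%, 43.4%, 27.8% and 4.88% upstream and 77.1%, 55.9%, 42.0%, 20.5% and 3.52% downstream. Distance, which chose the peaks, largely sets this share, so it is given with no test.

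The YY1 motif was rare at upstream summits. AANATGGC lay within 100 bp of the summit, on either strand, in 31 of the 629 peaks, or 4.93% (interval 3.37% to 6.92%), where 6.63% of all peaks and 2.86% of 18504 promoters without a peak, read in 1 window of the same length per gene at the median distance of the upstream summits, held it. Centred peaks held it in 136 of 1385 cases, 9.82%, which gives a ratio of upstream to centred of 0.502 (interval 0.344 to 0.733, Fisher's exact test, p = 0.000163, adjusted p = 0.000285). This difference kept its direction and an unadjusted p under 0.05 in all 13 alternatives run for it, with ratios from 0.241 to 0.746 (unadjusted p from 5.91e-09 to 0.0359, Fisher's exact tests). Of these, 1 looked for the word at the start and not at the summit (ratio 0.720). It did not pass after adjustment (Fisher's exact test, adjusted p = 0.0649). Downstream peaks held AANATGGC within 100 bp of the summit in 40 of 869 cases, 4.60%, and the ratio of 1.07 has an interval of 0.678 to 1.69 (p = 0.806, adjusted p = 0.940, Fisher's exact test), so a difference in either direction of that size is possible. Its direction turned with the word: AAGATGGC gave 0.553 (p = 0.177) and the core ATGGC gave 0.728 (p = 0.000452, Fisher's exact tests), with fewer matches upstream than downstream.

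Against their own surroundings the upstream summits did not stand apart at this window. Windows of the same length placed 2000 bp before and after each summit, where these touched no peak, held AANATGGC in 42 of 1251 cases, 3.36% (ratio 1.47, interval 0.932 to 2.31, Fisher's exact test, p = 0.101, adjusted p = 0.141). That result depended on the window and the peaks: within 50 bp of the summit the ratio was 0.711 (p = 0.390), within 250 bp it was 1.69 (p = 0.000298), and for peaks whose fold enrichment was 5 or more it was 1.76 (p = 0.0450, Fisher's exact tests). The core ATGGC alone gave 0.777 (p = 0.00366, Fisher's exact test), with fewer matches at upstream summits than in the flanks.

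Where the motif was present it lay away from the summit. There were 33 matches in the 31 peaks, since Rab22a and Hcfc1 held 2 each. The median distance of a match from the summit was 66.5 bp, against 36.5 bp for the 142 matches of centred peaks and 51.5 bp for the 42 matches of downstream peaks. Within 20 bp of the summit lay 4 of the 33 upstream matches and 42 of the 142 centred ones. The word read in the direction of the gene in 12 of the 33 upstream matches (36.4%, interval 20.4% to 54.9%) and in 94 of the 142 centred ones (66.2%, interval 57.8% to 73.9%), a difference with p = 0.00264 by a two-sided Fisher's exact test over matches. With only peaks that hold 1 match the shares were 37.9% of 29 and 66.4% of 131 (p = 0.00600, Fisher's exact test). Taken alone, 12 against 21 did not differ from equal numbers (exact binomial test, two-sided, p = 0.163). The open position of the word was A in 16, G in 10, C in 4 and T in 3 upstream matches, and G in 74, A in 28, C in 27 and T in 13 centred ones.

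The strongest motif-bearing peaks were those of Arfgef1 (fold enrichment 9.63), Mia2 (8.10), which takes part in export from the endoplasmic reticulum, Prpsap1 (7.41), Wrb (7.10), Napepld (7.06), Ankrd13c (7.04), Zfp668 (6.72), Arid1a (6.67), Esco1 (6.56), which acetylates cohesin, and Mtmr10 (6.29). At Ankrd13c the match AAGATGGC lay at the summit itself. By distance range, from the nearest to the farthest, the motif share was 3.39%, 6.57%, 2.21%, 6.19% and 8.54%, on 6, 9, 3, 6 and 7 peaks. The intervals of all 5 ranges overlap, so no order is read from them. By place, the motif was held by 16 of the 389 summits outside genes (4.11%), 12 of the 162 in the own gene (7.41%) and 3 of the 78 in another gene (3.85%).

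**Figure D3:**
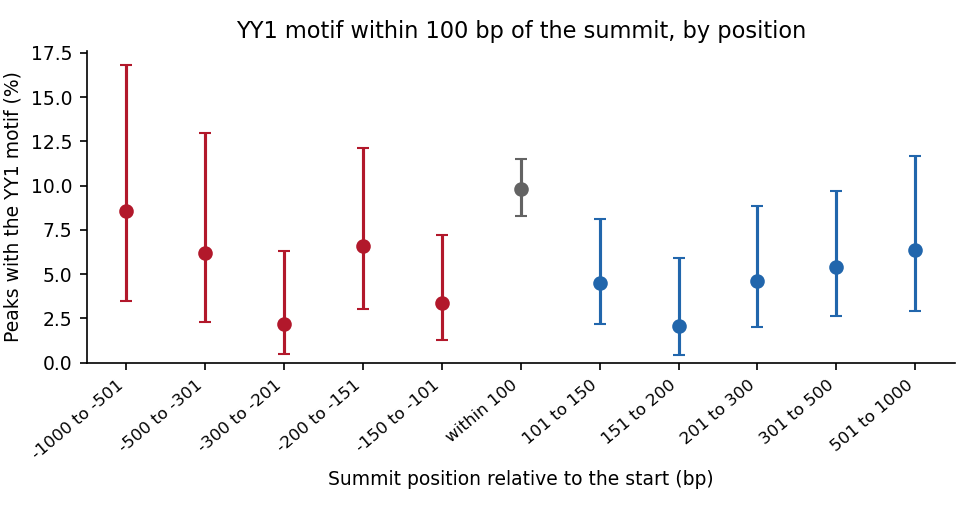
Share of peaks with AANATGGC within 100 bp of the summit, in percent with exact 95% binomial intervals, for 5 ranges of distance upstream (red), the centred peaks (grey) and the same ranges downstream (blue). Centred peaks have the highest share, 9.82%, and the intervals of the upstream ranges are wide because each holds 3 to 9 peaks with the motif.

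The motif was found at the start for more of these peaks than at the summit, a difference that was not tested. AANATGGC lay within 100 bp of the start for 51 upstream peaks, or 8.11% (interval 6.10% to 10.5%). Of these, 45 had it at the start and not at the summit, 6 had it at both and 25 had it at the summit only, so 76 peaks had it at one or the other. At the starts of centred peaks the share was 11.3% (ratio 0.720, interval 0.532 to 0.973, p = 0.0324, adjusted p = 0.0649 over both comparisons), at those of downstream peaks 9.32% (ratio 0.870, interval 0.622 to 1.22, p = 0.460, adjusted p = 0.460, Fisher's exact tests) and at promoters without a peak 4.63%. Neither comparison passed the threshold after adjustment. Among the 10 strongest peaks, Kmt2a, Clptm1 and Btbd7 had the motif at the start.

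The DNA under upstream summits was rich in CpG, less often so than under centred and downstream summits. A window within 100 bp of the summit was called CpG-rich when at least 50% of its bases were G or C and the observed over expected CpG was at least 0.6. Of the upstream peaks 547 (87.0%) met this, and of all peaks 84.0% did. The share was 95.6% of centred peaks (ratio 0.910, interval 0.881 to 0.940, p = 3.18e-11, adjusted p = 2.22e-10) and 93.0% of downstream peaks (ratio 0.935, interval 0.903 to 0.969, p = 0.000117, adjusted p = 0.000274, Fisher's exact tests). Median GC content was 68.7%, 71.1% and 73.1% for upstream, centred and downstream windows. The CpG-rich share was 92.1% in the nearest of the 5 distance ranges upstream and 76.8% in the farthest. Along the DNA, CpG density at upstream peaks climbed from 1.66 per 100 bp near 1000 bp before the summit to 11.4 at 125 bp after it, toward the gene. It was still 9.55 at 525 bp after the summit, where centred peaks had 6.16. Summits are aligned here, and the rule put the start after each upstream summit. The shape is therefore a description and was not tested.

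**Figure D4:**
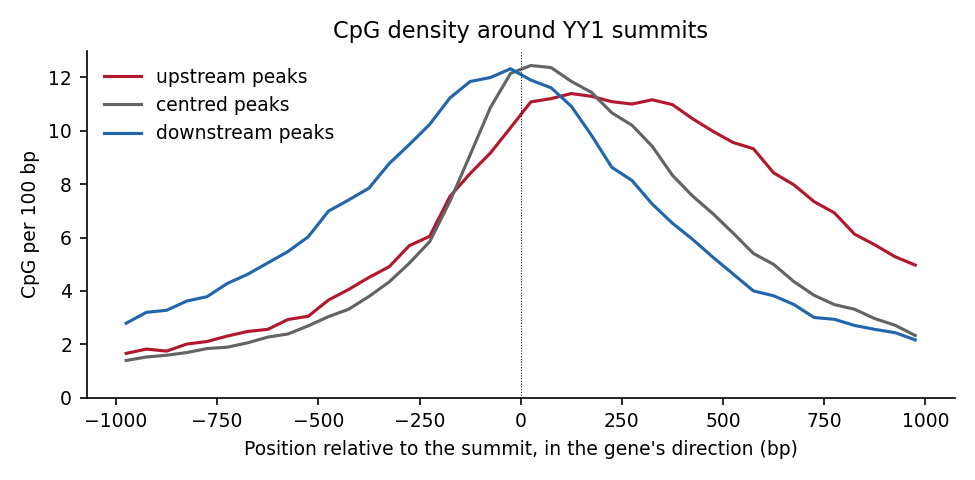
CpG dinucleotides per 100 bp in 50-bp steps within 1000 bp of the summit, in the direction of the gene, averaged over upstream (red), centred (grey) and downstream (blue) peaks. At upstream peaks the density is lopsided, 7.53 at 175 bp before the summit and 11.1 at 225 bp after it, and at downstream peaks it is lopsided the other way, 11.2 and 8.63. The rule itself put the start after upstream summits and before downstream ones.

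Several words of other promoter factors were more frequent at upstream than at downstream summits. Each of 9 words was looked for on either strand in the same windows, matches of different words being allowed to overlap. Promoters without a peak were read upstream of the start only, so they give no value for the words at downstream positions. The 18 comparisons with centred and downstream peaks were adjusted together. Of these 18, 7 had an adjusted p under the threshold of 0.05. The clearest was GCCAAT, the CCAAT word of NF-Y, found at 74 upstream peaks (11.8%, interval 9.35% to 14.5%), at 7.82% of all peaks, at 3.22% of downstream peaks and at 8.47% of promoters without a peak. Its ratio to downstream peaks was 3.65 (interval 2.39 to 5.57, adjusted p = 2.39e-09) and to centred peaks, where 139 of 1385 held it, 1.17 (interval 0.899 to 1.53, adjusted p = 0.335, Fisher's exact tests). It was held by 15.3%, 11.7% and 14.7% of upstream peaks in the 3 nearest distance ranges and by 5.15% and 7.32% in the 2 farthest.

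The NRF1 word GCGCANGCG was found at 97 upstream peaks (15.4%) and 13.6% of all peaks, against 7.83% of downstream peaks (ratio 1.97, adjusted p = 3.20e-05), 20.1% of centred peaks (ratio 0.768, adjusted p = 0.0346, Fisher's exact tests) and 1.98% of promoters without a peak. TGACGTCA, the full word of CREB and ATF factors, was found at 15 upstream peaks (2.38%) and 2.27% of all peaks, against 0.575% of downstream peaks (ratio 4.14, interval 1.51 to 11.3, adjusted p = 0.0142, Fisher's exact test), 3.54% of centred peaks and 0.438% of promoters without a peak. The E-box CACGTG of USF, MYC and MAX was found at 49 (7.79%) and at 6.78% of all peaks, against 4.14% downstream (ratio 1.88, Fisher's exact test, adjusted p = 0.0119), 8.45% of centred peaks and 3.49% of promoters without a peak. CTACANNTC, part of the word of ZNF143 and THAP11, was found at 26 (4.13%) and at 2.46% of all peaks, against 1.61% downstream (ratio 2.57, Fisher's exact test, adjusted p = 0.0119), 2.60% of centred peaks and 3.10% of promoters without a peak. For the NRF1, CREB and USF words the upstream share was thus near that of all peaks, and the downstream share was below it.

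The ETS word CCGGAAG was less frequent upstream than at the start. It was found at 54 upstream peaks (8.59%), at 11.7% of all peaks and at 17.8% of centred peaks, a ratio of 0.481 (interval 0.364 to 0.636, Fisher's exact test, adjusted p = 2.31e-07), at 7.25% of downstream peaks (ratio 1.18, interval 0.836 to 1.68, adjusted p = 0.456) and at 2.63% of promoters without a peak. GGGCGG was the most frequent of the words, at 411 upstream peaks (65.3%), 59.4% of all peaks, 70.2% of centred peaks (adjusted p = 0.0754), 61.4% of downstream peaks (adjusted p = 0.232, Fisher's exact tests) and 17.8% of promoters without a peak. TTTNGCGC, a word of E2F factors, was found at 9 upstream peaks (1.43%), 1.43% of all peaks, 1.81% of centred and 0.806% of downstream peaks and 0.762% of promoters without a peak. CAGCTG, the E-box that the muscle factors MYOD1 and MYOG prefer, was found at 65 (10.3%) and at 12.4% of all peaks, against 11.6% of centred peaks, 12.5% of downstream peaks and 9.47% of promoters without a peak, and for these last 2 words no comparison passed the test. At least 1 of GGGCGG, the NRF1 word and the ETS word was present at 450 upstream peaks, and 108 held none of the 9 words and no AANATGGC. Base composition differed between the 3 sets of windows, as given above, and its part in these differences was not tested.

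**Figure D5:**
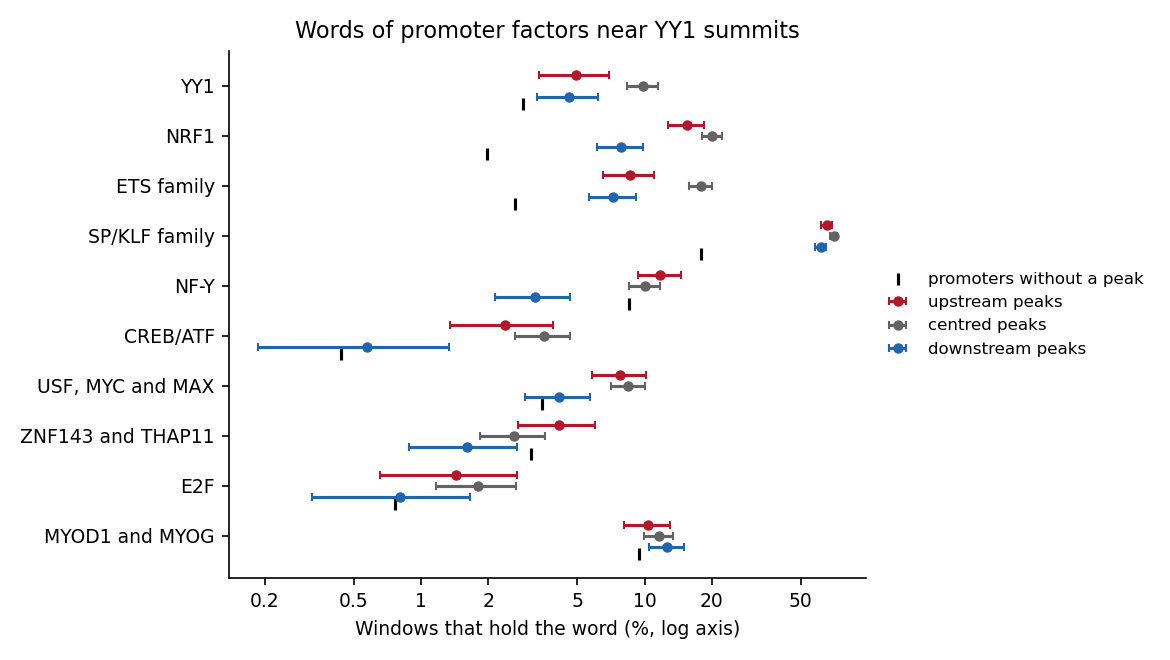
Share of windows within 100 bp of the summit that hold each word, in percent on a log axis with exact 95% binomial intervals, for upstream (red), centred (grey) and downstream (blue) peaks, with promoters without a peak as black ticks. The upstream share is close to the centred one for NF-Y (74 of 629 and 139 of 1385) and close to the downstream one for YY1 (4.93% and 4.60%) and ETS factors (8.59% and 7.25%).

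The genes behind the upstream peaks were described with 15 lists defined by gene symbols. Of 21951 protein-coding genes 2.84% had an upstream peak, and 120 of the 623 genes were in at least 1 list and 503 in none. No test was run on the lists, whose counts are a description. Genes coding for chromatin regulators held the highest share, 28 of 135 genes (20.7%) with 30 peaks and a median fold enrichment of 5.24. Of all their 64 peaks in the 3 sets, 46.9% were upstream, where 21.8% of the 2883 peaks of all coding genes were, and 15 were centred and 19 downstream. The symbol patterns of the chromatin list were narrowed after its first matches were seen, which limits what its share and rank can show.

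Within the chromatin list the strongest were Kmt2a (11.7), Kdm3a (11.1), Smchd1 (8.63), which takes part in X inactivation, and Kdm7a (7.89), another histone demethylase. The others, named after their values were seen, cover several complexes. Of writers of histone methylation and acetylation there were Setd1a (6.81), Kmt2b (6.70), Setd2 (5.04), Crebbp and Ep300 (2.69). SWI/SNF subunits were Arid1a (6.67), Smarcc2, Smarca2 (4.54), Arid1b (4.04), Smarcd3 (3.66) and Smarcd2 (3.28). Of the INO80 complex there were Ino80 (6.39) and Ino80b (5.10). Cohesin, the ring that holds DNA loops, was present with Stag1 (4.97), Rad21 (4.80) and Smc3 (4.63), along with its loader Nipbl (5.71). The list also held Hdac4 (6.39), Chd7 (6.31), Brd2 (6.12), Hdac2 (5.38), Suz12 (5.04) of Polycomb and Chd1 (4.48). Yy1 itself had a peak 211 bp before its start with a fold enrichment of 3.64 from 17 fragments, below the lower quartile of the upstream peaks.

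Other regulatory groups had lower shares than the chromatin list. Of 242 proteasome and ubiquitin genes 17 had an upstream peak (7.02%), among them Fbxw7 (9.96), Ube2n (6.81), a ubiquitin-conjugating enzyme, and Fbxl17 (5.83). Of 147 cell cycle and repair genes 10 had one (6.80%), led by E2f8 (6.31), Cdk5 (6.08), Cdc34 (5.66) and E2f3 (5.52). Of 207 RNA processing genes 12 had one (5.80%), led by Hnrnpa0 (9.46), Hnrnpul1 (6.70), the helicase gene Ddx50 (6.20) and Hnrnpc (5.93). Of 461 zinc-finger factor genes 17 had one (3.69%), led by Zfp41 (8.28), Zfp143 (7.41), Zfp668 (6.72) and Zbtb12 (6.70). Zfp143 is the mouse gene for ZNF143, whose word was counted above. The transcription machinery had 3 of 116 (2.59%), Med13l (5.56) of Mediator, Supt4a (5.55) and Cdk9 (5.38), the kinase that releases paused polymerase.

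In the lists of protein synthesis and mitochondria the shares ran from 2.56% to 4.82%. The cytosolic ribosome had 4 of 83 (4.82%), among them Rps29 (6.04) and Rpl37 (4.37), and translation factors and tRNA synthetases had 4 of 103 (3.88%), Eif3f (7.06), Eif4e (5.05), Eif5a (4.80) and Eif3c (4.70). Oxidative phosphorylation had 3 of 103 (2.91%), Cox7a2l (5.85), Atp5g1 (5.79) and Ndufv3 (4.45), the mitochondrial ribosome 2 of 78 (2.56%), Mrpl34 (5.35) and Mrpl28 (3.70), and mitochondrial import 1 of 26 (3.85%), Tomm40 (4.04). In 3 of these lists most peaks of the 3 sets were at the start itself: of 29 cytosolic ribosome peaks 18 were centred and 13.8% upstream, of 29 translation peaks 17 were centred and 13.8% upstream, and of 19 oxidative phosphorylation peaks 15 were centred and 15.8% upstream. Over all coding genes 1385 of the 2883 peaks were centred. Most peaks were also centred for transcription machinery (22 of 32), vesicle traffic (37 of 55) and proteasome and ubiquitin genes (42 of 74). This was not so in the remaining lists, such as RNA processing (33 of 69).

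In the remaining lists the counts were small. Vesicle traffic had 8 of 251 genes (3.19%), led by Trappc8 (8.15), Stx16 (6.56), Snx25 (5.92) and Rab22a (5.38), and autophagy had 3 of 29 (10.3%), Atg7 (5.52), Wipi1 (4.48) and Atg101 (4.04). The muscle list had 3 of 67 (4.48%), the MEF2 factor genes Mef2d (5.31) and Mef2a (5.05), which act in muscle differentiation, and Myh9 (2.69), a nonmuscle myosin. Chemokine and inflammatory signalling genes had 7 of 230 (3.04%), and these were signalling genes, led by the kinase gene Jak2 (9.07, 283 bp), the transcription factor genes Stat3 (8.09, 223 bp) and Irf1 (7.10, 159 bp), and Rel (5.35, 217 bp), a subunit of NF-kappaB. The others of that list, named after their values were seen, were Tnfaip8l1 (4.82), Nfkbiz (3.95) and Ifnz (3.18), and no chemokine gene was among them. Of the 19 peaks of this list in the 3 sets, 36.8% were upstream.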

How the data were processed

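After trimming and quality filtering, the authors aligned the reads to mm10 by bowtie2, discarded redundant ones and ran MACS2 with a p-value limit of 0.0001. Program versions were not given in the sources used here. The deposited list gives, for each peak, the fold enrichment, a ratio over the local background, and the -log10 p-value and -log10 q-value, all deposited as the authors' peak caller wrote them. These p-values describe chance within 1 pair of libraries. The integer score column was not used, and the background library was not analysed on its own.

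Starts came from protein-coding transcripts of the GENCODE M21 basic annotation and sequence from the RefSeq GRCm38 genome. Fragments and background were recovered from fold enrichment and p-value, and a whole number fitted 100% of the peaks, within 0.001 of -log10 p. The planned test of whether the start lies inside the peak was dropped, since the distance that chose the peaks largely sets it. Shares have exact binomial (Clopper-Pearson) intervals, and ratios of shares have log-normal ones. Because a weaker site needs more reads to pass the limit, depth restricts the list to sites with at least 8 fragments. Promoters without a peak are 1 start per gene with no peak within 1000 bp.

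The members, words, lists and tests were chosen with earlier results of these data known. The symbol patterns of the ribosome, ubiquitin and chromatin lists were narrowed after the first matches were seen. Cdk9 and Rad21 are in 2 lists. All lists match by symbol, so some members, such as Cdc37 and Cdc42bpb, match by symbol alone. Genes named are the 10 strongest peaks, the 10 strongest with AANATGGC, up to 4 per list, the 3 nearest each limit and the widest peak. Some genes that this rule would name are not reported here. Placement, motif search and fragment recovery were tested on simulated data. Python 3.11.15 was used with scipy 1.17.1, numpy 2.4.6, pysam 0.24.0, pandas 2.3.3 and matplotlib 3.10.9.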

Additional observations from a re-analysis of the deposited data

How the results depend on the processing

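The number of upstream peaks was 382 at a fold enrichment of 5 or more, 315 for summits more than 200 bp away and 389 for summits outside every gene, and stayed between 547 and 636 under the others. The motif share was 1.59% within 50 bp and 12.9% within 250 bp of the summit, 1.27% for AAGATGGC, 21.6% for ATGGC and 8.11% within 100 bp of the start. Against flanks the ratio was 1.76 at a fold enrichment of 5 or more (p = 0.0450) and 1.69 within 250 bp (p = 0.000298), and it turned to 0.711 within 50 bp, 0.994 for AAGATGGC and 0.777 for ATGGC (p = 0.00366, Fisher's exact tests). Against downstream peaks it turned to 0.943 for summits more than 200 bp away, 0.981 for the middle of the peak, 0.813 within 50 bp, 0.553 for AAGATGGC, 0.728 for ATGGC (p = 0.000452, Fisher's exact test) and 0.870 at the start. The ratio of strong peaks to centred ones turned from 0.999 to 1.03 for summits up to 500 bp away. The causes were not tested, and a longer window or shorter word has more chance matches by construction. Of 59 tested alternatives, 47 kept direction and side of the threshold by unadjusted p, among them all for the motif against centred peaks, for strength against downstream peaks and for CpG-rich shares. Windows at the start, summits off repeats, summits far from other starts and summits outside genes were added after the data were seen. No paired analysis was possible because the peaks come from a single pair of libraries, and no replicate could be left out. With 8 to 33 fragments at a summit, weaker sites are not detectable at this depth.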
